A study of Homo sapiens with 6 samples.

Results

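The Notch pathway was examined in U251, an established human glioma cell line, through 10 genes chosen by name. They were the receptor genes NOTCH1, NOTCH2 and NOTCH3, the ligand genes JAG1, JAG2 and DLL1, the target genes HES1 and HEY1, and the ligase genes MIB1 and MIB2. All 10 were found by their Ensembl identifiers among the 61496 features of the deposited tables. Untreated cells gave the 3 control libraries, and cells kept for 2 h under sevoflurane (Sev), an inhaled anesthetic, gave the other 3. The labels give no concentration for a single library. Sev was used at 1.7% or 3.4% or, as described for the transcriptome, 5.1%. U251 is a single line without neighboring tissue, and nothing in the labels says that the libraries of a group came from separate cultures, so p-values measure the spread between these libraries, which may be technical.

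Notch receptors are single-pass membrane proteins that are activated by ligands on a neighboring cell. The ligands of the Jagged and Delta-like families become active signals after the E3 ubiquitin ligases of the Mind bomb and Neuralized families promote their endocytosis, and the pull on the receptor lets ADAM proteases and then gamma-secretase cut it. The freed intracellular domain joins the DNA-binding protein RBPJ and coactivators of the Mastermind family and switches on repressor genes of the HES and HEY families. In glioma the pathway is known for its role in stem-like cells. RNA abundance, the quantity measured here, does not report receptor cleavage or protein levels.

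The windows around the transcription start are printed for HES1, the best known direct target, and for JAG1 and NOTCH3, the members with the largest changes described below. They are RefSeq sequences of GRCh38.p14, from 250 bases before to 50 bases after the start, written in the direction of the gene. Capitals mark TGGGAA, the core letters bound by RBPJ, on either strand. The HES1 window is chr3:194135898-194136197 on the plus strand, the JAG1 window chr20:10673950-10674249 on the minus strand and the NOTCH3 window chr19:15200946-15201245 on the minus strand.
HES1: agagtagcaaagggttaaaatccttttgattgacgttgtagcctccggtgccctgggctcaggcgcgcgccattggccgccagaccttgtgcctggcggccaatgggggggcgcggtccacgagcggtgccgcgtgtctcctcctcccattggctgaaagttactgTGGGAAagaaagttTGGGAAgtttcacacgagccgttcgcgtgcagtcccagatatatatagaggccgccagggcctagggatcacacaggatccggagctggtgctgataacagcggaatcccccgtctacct
JAG1: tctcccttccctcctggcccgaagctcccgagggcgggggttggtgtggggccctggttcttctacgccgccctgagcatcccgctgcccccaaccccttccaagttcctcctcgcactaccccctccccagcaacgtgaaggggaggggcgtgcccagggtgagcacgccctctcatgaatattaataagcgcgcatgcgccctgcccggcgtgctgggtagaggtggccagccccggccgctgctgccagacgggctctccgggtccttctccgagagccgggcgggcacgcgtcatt
NOTCH3: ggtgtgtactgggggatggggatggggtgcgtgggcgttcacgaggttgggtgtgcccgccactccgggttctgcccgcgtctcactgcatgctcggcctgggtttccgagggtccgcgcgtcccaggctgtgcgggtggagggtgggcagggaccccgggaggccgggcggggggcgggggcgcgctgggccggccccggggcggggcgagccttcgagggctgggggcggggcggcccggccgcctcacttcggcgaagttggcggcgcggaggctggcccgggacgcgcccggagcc

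RefSeq windows were matched for 8 of the 10 members, 9 windows in all because MIB2 has 2, and none was matched for DLL1 or HEY1. The MIB1 window, chr18:21740542-21740841 on the plus strand, lies inside the MIB1 span given below, which starts at 21704957. The annotations thus differ on the start of MIB1. TGGGAA stood in 1 of the 9, that of HES1, at 84 and 70 bases before the start and in the same direction. The first of these sites is also GTGGGAA, a longer form of the same letters. Of 35116 windows of this length, 24% held TGGGAA at least once, 3.8% held 2 or more copies and 6.25% held GTGGGAA, counting both strands. TGATGCAA, a form of the element that ATF4 binds with its partners, was in 0 of the 9 windows and in 0.866% of all windows. TGACG, the core of the cyclic AMP response element, was in 4 of the 9 windows, those of JAG1, JAG2, HES1 and MIB2, and in 24.6% of all. These are letter matches in short windows and describe no binding.

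The libraries held between 38624292 and 46318311 counts. Counts were scaled by edgeR's TMM method to CPM, counts scaled to a common library size, and Sev was compared with control by its quasi-likelihood test over 27514 features. A gene was called when its Benjamini-Hochberg adjusted p over all these features was under 0.05. Between 50.5% and 68% of abundant genes differed by more than sampling noise within each pair of replicates and no library was treated as a duplicate. The 12 glioma and glial markers summed to between 1333 and 1556 FPKM, the deposited counts per length and library size, in control and between 1333 and 1436 in Sev libraries, although CHI3L1 had only 0 to 14 counts a library. VIM alone held 828 to 1027 FPKM of this sum, and 5 of the 11 tested markers were called, with SOX2 (log2 fold change −0.72), S100B (−1.10) and OLIG2 (−1.99) lower and CD44 (0.97) and EGFR (0.27) higher. These are 27.3% lower and 18.2% higher, against 21.5% and 22.2% of all features tested. Of 5 immune markers, CD3E, AIF1 and MS4A1 had 0 counts in all 6 libraries and PTPRC had 0 to 12, while CD68 had 88 to 198 counts a library and was not called (log2 fold change 0.67, adjusted p = 0.111). The epithelial markers summed to between 6.44 and 6.89 FPKM in control and between 7.54 and 8.66 in Sev libraries, and the neuronal markers to between 15.9 and 21.1 and between 25.9 and 27.3. The epithelial marker KRT18 (log2 fold change 0.49), 1 of 2 tested, and the neuronal markers TUBB3 (0.68) and SYT1 (0.55), 2 of 4 tested, were called higher (50% of each list, against 22.2% of all features). The part of these markers in the results was not tested.

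Sev-treated cells had more RNA of the ligands JAG1 and JAG2, of the receptor NOTCH3 and of the targets HES1 and HEY1, and less of NOTCH1 and DLL1. NOTCH2, MIB1 and MIB2 were not called. Thus 5 of the 10 members were called higher, against 22.2% of all features tested, and 2 were called lower, against 21.5%. Members called lower numbered 1 to 3 on leaving out a library. The members were chosen with earlier results of these data known, so such shares do not test the pathway. With a log2 fold change past 1 in either direction and an unadjusted p under 0.05, the limits of the study's methods, 3 members were higher (JAG1, JAG2 and NOTCH3), against 11.4% of all features, and 0 were lower, against 12.0%. In the lower direction, 3 members had an unadjusted p under 0.05 by edgeR, each with a change smaller than that fold. DESeq2 also placed 0 members past both limits in that direction. The CPM of the groups did not overlap for 7 of the 10 members, against 56.5% of all features. The median log2 fold change was 0.26 over the members and −0.0056 over all features tested. Whether fewer cells or less RNA per cell carried a transcript cannot be told apart in bulk RNA.

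**Figure D1:**
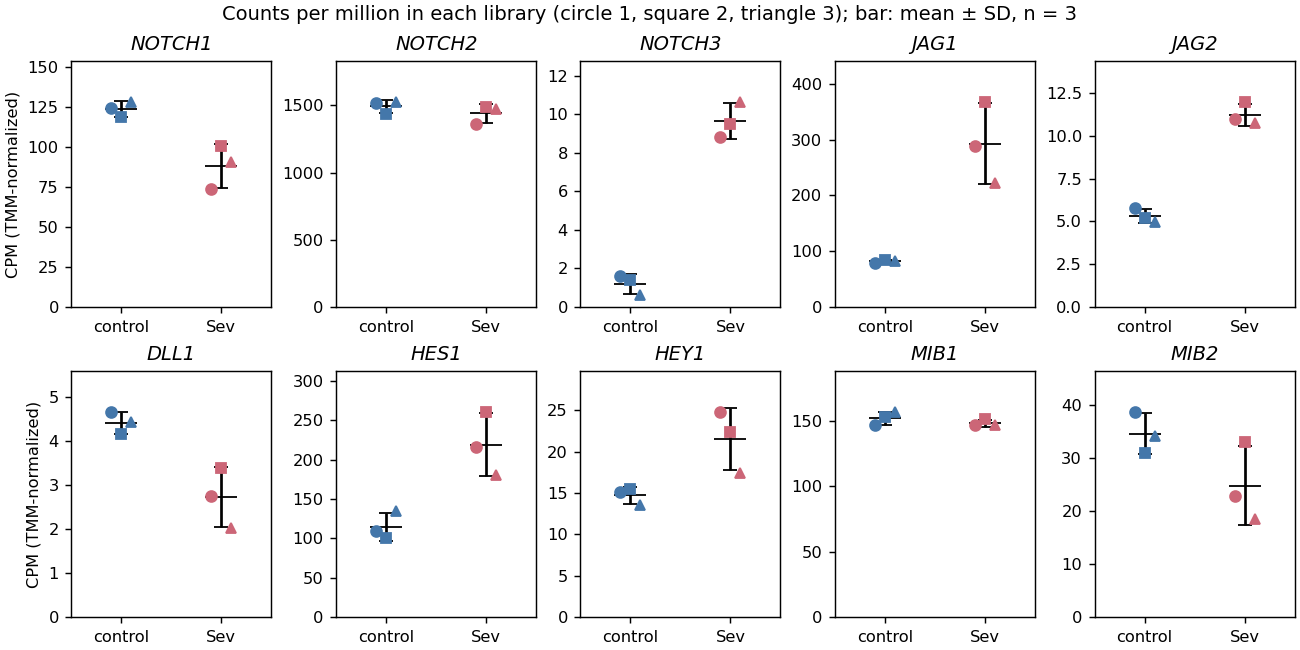
TMM-normalized CPM of the 10 members in each library, control in blue and Sev in red, with the mean and SD of 3 libraries as bars and every axis starting at 0. JAG1, JAG2, NOTCH3, HES1 and HEY1 lie higher in all 3 Sev libraries, NOTCH1 and DLL1 lie lower, and NOTCH2, MIB1 and MIB2 overlap.

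Among the receptors, NOTCH2 dominated in both groups. NOTCH2 (ENSG00000134250, chromosome 1, 119911553 to 120069626, minus strand, positions here and below from GENCODE 29 on GRCh38) had 1517, 1439 and 1525 CPM in the control libraries and 1358, 1490 and 1472 CPM in the Sev libraries. The groups overlapped, with a single Sev library, the first, under the control range. Its log2 fold change was −0.052 with a 95% confidence interval from −0.24 to 0.14 (adjusted p = 0.635).

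NOTCH2 shares its first exons with the human-specific NOTCH2NL genes, near-identical partial copies known for their role in cortical progenitors, and the counting could split reads between them. The copies NOTCH2NLA, NOTCH2NLB, NOTCH2NLC and NOTCH2NLR together held between 6.49% and 6.68% of the counts summed over NOTCH2 and copies in control libraries and between 4.52% and 5.37% in Sev libraries. NOTCH2NLA fell by 0.49 on the log2 scale (SE 0.082, adjusted p = 0.00261) and NOTCH2NLC fell by 0.64 (SE 0.081, adjusted p = 0.000798). NOTCH2NLB had a log2 fold change of −0.24 (adjusted p = 0.125) and NOTCH2NLR, with 41 to 180 counts a library, one of 0.43 (adjusted p = 0.578). The values of NOTCH2 and its copies are uncertain to the extent that reads were shared.

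NOTCH1 (ENSG00000148400, chromosome 9, 136494433 to 136545786, minus strand), the receptor most studied in development and leukemia, had 125, 119 and 128 CPM in control libraries and 73.5, 101 and 90.7 CPM in Sev libraries. All 3 Sev libraries lay under the lowest control library. NOTCH1 fell by 0.49 on the log2 scale (standard error, SE, 0.12 and adjusted p = 0.0123), and it was called lower under all 15 alternative settings, at −0.64 to −0.37. An antisense RNA within its span on the other strand, AL592301.1, had 69 to 118 counts a library and a log2 fold change of −0.0093 (adjusted p = 0.978).

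NOTCH3 (ENSG00000074181, chromosome 19, 15159038 to 15200981, minus strand), known from vascular smooth muscle, had the largest fold change of the 10 members on the CPM scale. Its CPM was 1.61, 1.39 and 0.597 in control libraries, from 68, 55 and 29 counts, and 8.83, 9.49 and 10.6 in Sev libraries, from 333, 357 and 422 counts. Every Sev library lay far above every control library. The log2 fold change was 3.02 (SE 0.33, adjusted p = 0.000436), an 8.11-fold rise, and it was called under all 15 alternatives, at 2.68 to 3.29 on counts, 2.13 on log2(FPKM + 0.1) and 0.69 on log2(FPKM + 1), where the pseudocount exceeds the FPKM of this gene. Even so, NOTCH3 stayed a minor receptor per length, at 0.789 ± 0.0963 FPKM (SD, n = 3) in Sev-treated cells against 55.8 ± 3.13 FPKM for NOTCH2.

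Count ratios within a library do not depend on scaling between libraries. The log2 ratio of NOTCH2 to NOTCH1 counts was 3.60, 3.60 and 3.57 in control libraries and 4.21, 3.89 and 4.02 in Sev libraries. The mean rose by 0.45, the groups did not overlap, and the exact two-sided permutation test gave p = 0.1 (adjusted p = 0.167 over 5 ratios), the smallest that 3 libraries against 3 allow. The log2 ratio of NOTCH3 to NOTCH1 was −6.82 ± 0.81 (SD, n = 3) in control and −3.19 ± 0.19 (SD, n = 3) in Sev libraries, a difference of 3.63 with the same exact p = 0.1 and adjusted p. Summed over NOTCH1, NOTCH2, NOTCH3 and NOTCH4, the deposited FPKM was 74.1 ± 3.66 in control and 63.4 ± 3.97 in Sev libraries (SD, n = 3). NOTCH2 made up 86.2% ± 0.21 of it in control and 88% ± 0.91 in Sev libraries, and NOTCH1 13.4% ± 0.14 and 10.1% ± 1.02. FPKM holds no TMM factor, and on TMM-normalized counts NOTCH2 was not called (log2 fold change −0.052).

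JAG1 had the largest difference between group means of the members that were called, in CPM. JAG1 (ENSG00000101384, chromosome 20, 10637684 to 10673999, minus strand), a ligand expressed by many epithelial, vascular and glial cells, had 78.4, 84 and 82.2 CPM in control libraries. In Sev libraries it had 289, 368 and 223 CPM. The control libraries lay close together and the Sev libraries apart, with a coefficient of variation of 3.49% against 24.7%, yet the lowest Sev library was far above the highest control library. The log2 fold change was 1.85 (SE 0.17, adjusted p = 0.000228), a 3.59-fold rise called in all 15 alternatives, at 1.55 to 2.01. JAG1 had the smallest p of the members and ranked 578 of the 27514 features.

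A transcript on the opposite strand, AL050403.2, overlaps exons of JAG1 and also rose, from 32, 29 and 33 counts in control libraries to 168, 144 and 101 in Sev libraries (log2 fold change 2.32, adjusted p = 0.000477). The libraries were strand-specific, but it is not stated whether the strand was used in counting. JAG1 itself had 3323 to 3995 counts in control and 8838 to 13830 in Sev libraries. MIR6870, a microRNA gene inside the JAG1 span on the same strand, had 2 to 7 counts in control and 22 to 29 in Sev libraries, and reads of JAG1 could have been assigned to it. Over the 6 libraries, the log2 CPM closest to that of JAG1 were those of IRS1 (Pearson r = 0.999), NRP2 (r = 0.999) and ACTN1-DT (r = 0.999). A total of 212 of the 27513 other features had r over 0.99, and all points share the same 2 groups and library sizes.

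JAG2 (ENSG00000184916, chromosome 14, 105140981 to 105168824, minus strand), the second Jagged ligand, was at 0.702 ± 0.065 FPKM (SD, n = 3) in control cells, against 7.48 ± 0.11 FPKM for JAG1. It had 5.76, 5.22 and 4.98 CPM in control libraries and 11, 12 and 10.8 CPM in Sev libraries. The groups were well apart, and the log2 fold change was 1.08 (SE 0.13, adjusted p = 0.000663), a 2.11-fold rise. It was called in all 15 alternatives but lay under a log2 fold change of 1 with library size only (0.94) and on the FPKM settings (0.47 to 0.86). Their log2 count ratio, JAG2 to JAG1, went from −3.94 ± 0.15 (SD, n = 3) in control to −4.68 ± 0.29 (SD, n = 3) in Sev libraries, without overlap (difference −0.74, exact permutation p = 0.1, adjusted p = 0.167).

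DLL1 (ENSG00000198719, chromosome 6, 170282206 to 170306565, minus strand), a Delta-like ligand of neural progenitors, moved the other way. It had 4.65, 4.16 and 4.42 CPM in control libraries and 2.76, 3.38 and 2.02 CPM in Sev libraries. The groups did not overlap, and DLL1 fell by 0.70 on the log2 scale (SE 0.21, adjusted p = 0.0295). The call held without Sev replicate 2 and was lost on leaving out any other single library (control replicate 1, 2 or 3 or Sev replicate 1 or 3), with log2 fold changes from −0.88 to −0.52 and adjusted p from 0.0141 to 0.0793. FAM120B, which overlaps the DLL1 span on the opposite strand outside its exons, had 1956 to 3963 counts a library and fell by 0.59 (adjusted p = 0.00118).

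The Delta-like ligands outside the members rose from low levels. DLL4, a ligand best known from blood vessels, had 14, 5 and 16 counts in control and 94, 77 and 137 in Sev libraries (log2 fold change 3.31, SE 0.38, adjusted p = 0.000519). DLL3, a divergent ligand that acts inside the cell, had 30 to 40 counts in control and 44 to 58 in Sev libraries (log2 fold change 0.71, adjusted p = 0.0413), a call that held in only 3 of 13 alternatives and was lost with DESeq2 (adjusted p = 0.139), with library size only (adjusted p = 0.0874) and in 5 of the 6 fits without a library. NOTCH4, an endothelial receptor, had 76, 39 and 166 counts in control and 231, 203 and 227 in Sev libraries (log2 fold change 1.47, adjusted p = 0.0172), and its call was lost without control replicate 1 (adjusted p = 0.0653). The 5 endothelial markers summed to between 1.04 and 1.29 FPKM in control and between 1.20 and 1.76 in Sev libraries, and 2 of the 4 tested were called higher (50%, against 22.2% of all features). Their part in these results was not tested.

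Summed over JAG1, JAG2, DLL1, DLL3 and DLL4, the deposited FPKM was 9.46 ± 0.023 in control and 26.9 ± 5.19 in Sev libraries (SD, n = 3). JAG1 made up 79.1% ± 1.33 of this sum in control and 89.7% ± 1.99 in Sev libraries, and the DLL1 share went from 10.4% ± 0.80 to 2.01% ± 0.074. The lowest Sev sum, 21.8, lay above the highest control sum, 9.48, and no test was run on the sums. FPKM holds no TMM factor, and on that scale the median over all features stood 0.11 to 0.17 under 0 (log2) where low values were filtered.

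**Figure D2:**
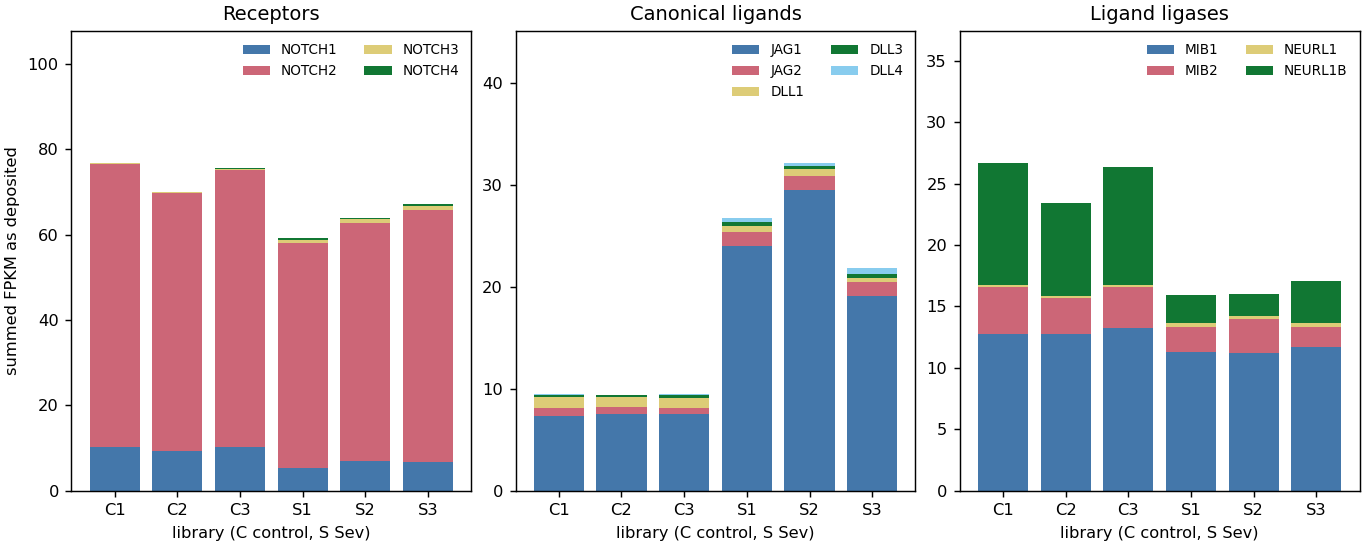
Deposited FPKM of receptors, canonical ligands and ligand ligases in each library, stacked by gene, C for control and S for Sev. Ligand sums are 9.44 to 9.48 in control and 21.8 to 32.2 in Sev libraries, mostly JAG1, while the ligase sums are lower in Sev libraries, mostly through NEURL1B.

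HES1 and HEY1, the transcriptional repressors that Notch signaling induces in many cells, were both higher in Sev-treated cells. HES1 (ENSG00000114315, chromosome 3, 194136145 to 194138732, plus strand), whose start window is printed above with its TGGGAA sites, had 109, 100 and 134 CPM in control libraries. In Sev libraries it had 216, 260 and 180 CPM. All Sev libraries lay above all control libraries, and the log2 fold change was 0.94 (SE 0.16, adjusted p = 0.00263), a 1.91-fold rise called in all 15 alternatives. HES1 was the most abundant member per length in Sev-treated cells, at 81.7 ± 12.2 FPKM (SD, n = 3), and came after NOTCH2 in control cells, at 47.4 ± 7.43 FPKM (SD, n = 3).

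HEY1 (ENSG00000164683, chromosome 8, 79764010 to 79767863, minus strand) had 15.1, 15.4 and 13.6 CPM in control libraries and 24.8, 22.3 and 17.4 CPM in Sev libraries. The lowest Sev library lay only a little above the highest control library. The log2 fold change was 0.55 (SE 0.15, adjusted p = 0.0182), and the call did not hold when control replicate 3 was left out (adjusted p = 0.0703), when Sev replicate 1 was left out (adjusted p = 0.0674) and on the 3 FPKM settings (adjusted p from 0.0509 to 0.0859). The log2 count ratio of HEY1 to HES1 was −2.95 ± 0.32 in control and −3.35 ± 0.21 in Sev libraries (SD, n = 3), and the groups overlapped (exact permutation p = 0.2, adjusted p = 0.25).

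Of 8 other target or feedback genes, 6 were tested, and NRARP and HES6 were called, both higher (33.3% of 6, against 22.2% of all features). NRARP, a feedback inhibitor that binds the Notch transcription complex, had 64 to 86 counts in control and 97 to 132 in Sev libraries (log2 fold change 0.79, SE 0.21, adjusted p = 0.0163), a call that did not hold with control replicate 1 left out (adjusted p = 0.0565) or with control replicate 3 left out (adjusted p = 0.0544), nor in 2 of the 3 FPKM settings (adjusted p = 0.0528 and 0.102). HES6, which opposes HES1, had a log2 fold change of 0.63 (adjusted p = 0.0246), and the call held in 7 of 15 alternatives, being lost with library size only (adjusted p = 0.0789), on the 3 FPKM settings and in 4 of the 6 fits without a library. HES2, HES4, HES7 and HEY2 were not called. HES5 and HEYL were listed at 0 counts in all control libraries and had at most 5 in a Sev library, which was too few to test.

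The Mind bomb ligases differed from each other in their spread. MIB1 (ENSG00000101752, chromosome 18, 21704957 to 21870957, plus strand), the main ligase for Notch ligands in mammals, had 147, 153 and 157 CPM in control libraries and 147, 151 and 147 CPM in Sev libraries. The groups overlapped and the replicates were tight, with coefficients of variation of 3.29% and 1.75%. The log2 fold change was −0.038 with a 95% confidence interval from −0.20 to 0.12 (adjusted p = 0.685). On log2(FPKM + 1) without a filter MIB1 was called lower at −0.17 (adjusted p = 0.0479). Inside its span on the other strand, outside its exons, MIR133A1HG had 237 to 306 counts in control and at most 126 in Sev libraries and fell by 1.10 (adjusted p = 0.00233).

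MIB2 (ENSG00000197530, chromosome 1, 1615415 to 1630610, plus strand), the related ligase, had 38.7, 31 and 34.1 CPM in control libraries and 22.8, 33 and 18.5 CPM in Sev libraries. Sev replicate 2 lay inside the control range and the other Sev libraries under it. The log2 fold change was −0.48 with a 95% confidence interval from −0.96 to −0.0087 and did not pass adjustment (adjusted p = 0.0913). MIB2 was not called in 11 of 15 alternatives. Without Sev replicate 2 the value was −0.74 (adjusted p = 0.00766), and without Sev replicate 3 it was −0.31 (adjusted p = 0.211). It was also called lower with library size only (−0.64, adjusted p = 0.0286) and in the filtered FPKM settings (adjusted p = 0.0349 and 0.0377). A transcript on the opposite strand, AL691432.2, overlaps exons of MIB2 and had 187 to 275 counts a library, against 732 to 1657 for MIB2, so the MIB2 value is uncertain if the strand was not used. The log2 count ratio of MIB2 to MIB1 was −2.15 ± 0.20 in control and −2.63 ± 0.40 in Sev libraries (SD, n = 3), with overlap (exact permutation p = 0.3, adjusted p = 0.3).

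Sev replicate 2 had the highest CPM of the Sev libraries for 8 of the 10 members, and Sev replicate 3 the lowest for 7. On the deposited FPKM, which leaves out the TMM factors, these numbers were 6 and 5. The TMM factor of Sev replicate 2, 0.918, was the lowest of the 6 libraries, the others lying between 0.951 and 1.08. The part of this library in the spread was not tested beyond the fits that left it out.

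The ligases of the Neuralized family, which also act on Delta and Jagged ligands, were called in opposite directions. NEURL1B fell from 73.6, 58 and 72.9 CPM in control libraries to 19, 15.5 and 27.7 CPM in Sev libraries, without overlap. It fell by 1.72 on the log2 scale (SE 0.21, adjusted p = 0.000705) and was called in all 15 alternatives. NEURL1 had 32 to 54 counts in control and 46 to 95 in Sev libraries (log2 fold change 1.02, adjusted p = 0.0287), a call that held in 6 of 13 alternatives, being lost with library size only (adjusted p = 0.0555), on unfiltered log2(FPKM + 1) (adjusted p = 0.185) and in 5 of the 6 fits without a library. Over MIB1, MIB2, NEURL1 and NEURL1B the summed FPKM was 25.5 ± 1.83 in control and 16.3 ± 0.65 in Sev libraries (SD, n = 3), and MIB1 made up 50.9% ± 3.46 and 69.8% ± 1.38 of it. These sums hold no TMM factor, and on TMM-normalized counts MIB1 and MIB2 were not called.

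**Figure D3:**
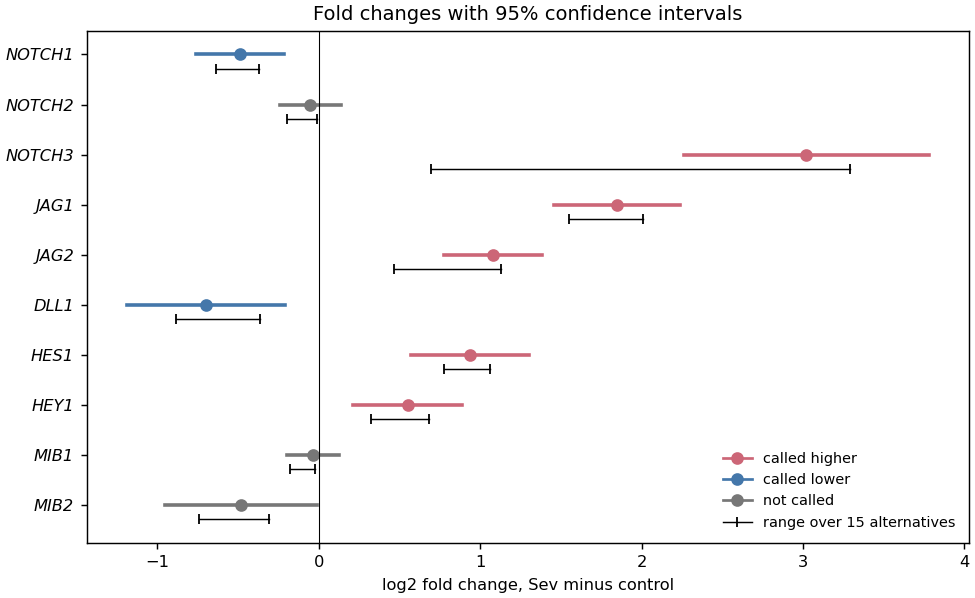
Log2 fold change of each member, Sev minus control, with its 95% confidence interval from edgeR as a coloured line and the range of estimates over 15 alternative settings as a thin black line. NOTCH3 is highest at 3.02 and DLL1 lowest at −0.70, and no alternative crosses 0 for any of the 10 members, while the intervals of NOTCH2 and MIB1 do.

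Per length, the members kept nearly the same order of levels within the libraries of a group. In control cells the mean FPKM fell from NOTCH2 (63.9) through HES1 (47.4), MIB1 (12.9), NOTCH1 (9.93), JAG1 (7.48), HEY1 (3.86), MIB2 (3.35), DLL1 (0.981) and JAG2 (0.702) to NOTCH3 (0.106). Of these neighbors only HEY1 and MIB2 overlapped in their replicates. In Sev-treated cells the order was HES1 (81.7), NOTCH2 (55.8), JAG1 (24.2), MIB1 (11.4), NOTCH1 (6.40), HEY1 (5.11), MIB2 (2.14), JAG2 (1.35), NOTCH3 (0.789) and DLL1 (0.544), and only NOTCH1 and HEY1 overlapped. HES1 and NOTCH2 changed places, and JAG1 moved past MIB1 and NOTCH1. The length implied by the FPKM was 1.23 to 1.26 times the exon length of GENCODE 29 for 8 members and 1.46 times for NOTCH2 and DLL1, so the FPKM of these last members is low relative to the others by that measure.

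Around the members, 71 further genes of the pathway were listed by role, and 66 passed the expression filter. Of these, 21 were called higher (31.8%, against 22.2% of all features) and 8 lower (12.1%, against 21.5%). With library size only, a scaling on which the median of all features was −0.15, the split was 11 higher (16.7%) and 14 lower (21.2%), against 16.9% and 27.3% of all features on that scaling. The count also changed on leaving out a library. It was 11 higher without control replicate 1 (16.4% of those tested, against 17.6% of all features). Without control replicate 2 it was 13 (19.4%, against 19.0%), and without control replicate 3 it was 10 (15.2%, against 16.8%). Without Sev replicate 1 it was 12 (17.9%, against 16.7%). The shares without Sev replicate 2 or 3 were 24.2% and 20.9%, against 20.0% and 19.2%. On filtered log2(FPKM + 1) and log2(FPKM + 0.1) they were 12.5% and 10.7%, against 16.4% and 16.2%. Unfiltered log2(FPKM + 1) gave 12.7%, against 9.64%. The median log2 fold change of the list was 0.11. The list, too, was chosen with earlier results of these data known, so its shares do not test the pathway.

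**Figure D4:**
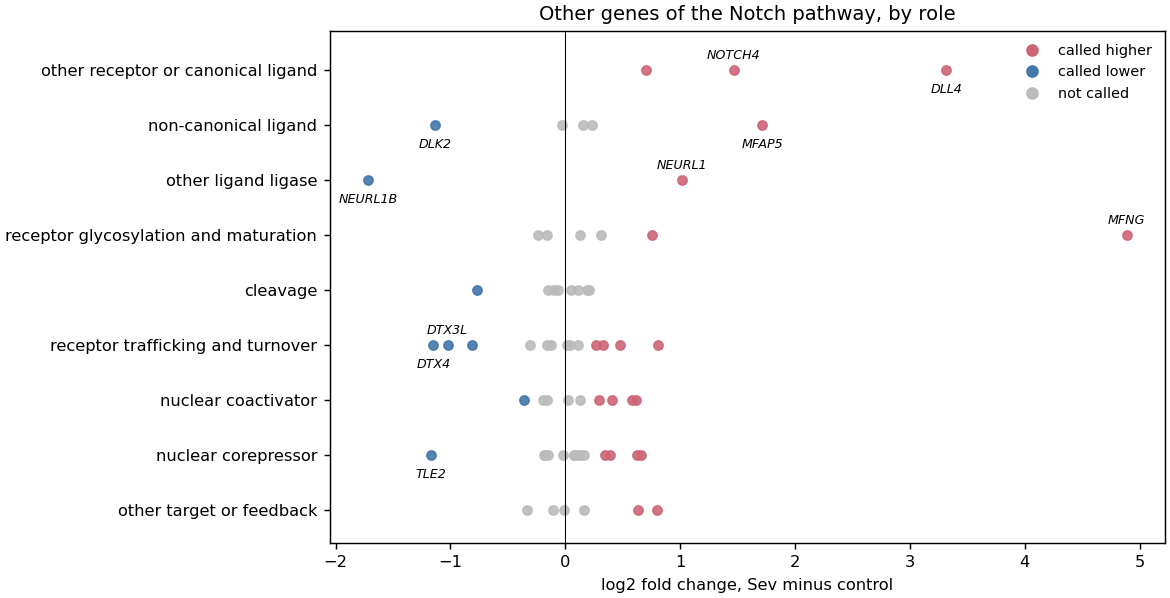
Log2 fold change of the 66 tested genes of the wider pathway list, Sev minus control, by role, with red for called higher, blue for called lower and grey for not called. Names are given past 0.9 in either direction, and the value of MFNG rests on 0 to 7 counts in the control libraries and depends on the prior count.

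Of 8 genes of the enzymes that cut the receptor, among them ADAM10, ADAM17, the presenilins and nicastrin, 1 was called, lower (12.5%, against 21.5% of all features). It was APH1B, a gamma-secretase subunit, which fell by 0.77 (SE 0.19, adjusted p = 0.0146) from 4.67 ± 0.14 to 2.75 ± 0.58 CPM (SD, n = 3). Among 6 genes of receptor glycosylation and maturation, 2 were called higher (33.3%, against 22.2% of all features) and 0 lower (against 21.5%). FURIN, the convertase that processes the receptor precursor, rose from 133 ± 6.13 to 223 ± 32.7 CPM (log2 fold change 0.75, adjusted p = 0.00155). MFNG, a Fringe glycosyltransferase that tunes the choice of ligand, had 7, 0 and 0 counts in control and 67, 65 and 61 in Sev libraries (adjusted p = 0.00194). The glycosyltransferase genes POFUT1, POGLUT1, LFNG and RFNG were not called.

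Genes of receptor trafficking and turnover moved in both directions, with 4 of 13 called higher (30.8%, against 22.2% of all features) and 3 lower (23.1%, against 21.5%), shares near the background. DTX3L, a Deltex-family E3 ligase, fell by 1.03 on the log2 scale (SE 0.085, adjusted p = 0.000168) from 55.8 ± 2.71 to 27.4 ± 1.09 CPM (SD, n = 3). DTX4, a Deltex ligase that acts on Notch receptors, fell by 1.15 (adjusted p = 0.0134) from 80 to 126 counts in control to 39 to 48 in Sev libraries, a call lost on unfiltered log2(FPKM + 1) (adjusted p = 0.0583). NEDD4, a ubiquitin ligase that limits receptor levels, rose from 96.1 ± 10.6 to 168 ± 15.9 CPM (log2 fold change 0.81, adjusted p = 0.00106).

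Among 9 nuclear coactivator genes 4 were called higher (44.4%, against 22.2% of all features) and 1 lower (11.1%, against 21.5%). The acetyltransferase genes EP300 (log2 fold change 0.61, adjusted p = 0.00077) and CREBBP (0.58, adjusted p = 0.00309) rose, and MAML2 of the Mastermind family was called higher at 0.30 (adjusted p = 0.0321), a call that held in only 6 of 15 alternatives, being lost with library size only (0.15, adjusted p = 0.187), without the expression filter, on the 3 FPKM settings and in 4 of the 6 fits without a library. RBPJ itself, at 68.7, 92.9 and 78.5 CPM in control and 96.1, 56 and 63.3 CPM in Sev libraries, had a log2 fold change of −0.16 (adjusted p = 0.567). RBPJ was named after its values were seen. Of 14 tested corepressor genes 4 were called higher (28.6%) and 1 lower (7.14%), against the same background. SPEN, which recruits corepressors to RBPJ, rose from 216 ± 6.48 to 341 ± 56 CPM (log2 fold change 0.66, adjusted p = 0.00344). The Groucho family genes TLE1 and TLE2 were called in opposite directions, at 0.62 (adjusted p = 0.00409) and −1.17 (adjusted p = 0.0108). Of the same family, TLE3 was called higher at 0.35 (adjusted p = 0.0171) and TLE4 was not called (−0.016, adjusted p = 0.911).

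Among 7 non-canonical ligand genes, 5 were tested. Of these, 1 was called higher (20%, against 22.2% of all features) and 1 lower (20%, against 21.5%), shares near the background. DLK2 fell by 1.14 on the log2 scale (adjusted p = 0.0039), with 84 to 148 counts in control and 43 to 49 in Sev libraries. MFAP5 was called higher at 1.71 (adjusted p = 0.0204) from 11 to 35 counts in control and 45 to 90 in Sev libraries, a call that did not hold with control replicate 2 or 3 or Sev replicate 2 left out or on unfiltered log2(FPKM + 1). DNER, CNTN1 and EGFL7 were not called.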

How the data were processed

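Ribosomal RNA-depleted, strand-specific libraries of 3 control and 3 Sev samples were sequenced in paired-end mode. The authors deposited raw counts per gene without normalization, and FPKM values, scaled by length and library size, for the same 61496 features. For each member the deposited FPKM equalled the count over one length and the library total within 2.44%. The submitters' processing notes name bcl2fastq 2.19, featureCounts and hg18. The aligner and how the FPKM were computed are not given in the sources used here. Identifiers were paired with symbols by a gene table and with positions by GENCODE 29 (GRCh38). Some identifiers, such as that of NOTCH2NLB (ENSG00000286019), belong to GRCh38 releases and not to hg18, so the build behind the counts is unclear. Samples were grouped by their titles, and 0 columns were left unmapped.

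The members and gene lists were chosen with earlier results of these data known. Counts were filtered with filterByExpr, TMM-normalized and tested with edgeR 4.0.16 (glmQLFit, glmQLFTest, group only) in R 4.3.3, with Benjamini-Hochberg adjustment over 27514 features. Standard errors are the absolute log2 fold change over the square root of F. Count ratios were compared by an exact two-sided permutation test. Alternatives were DESeq2 1.42.0, its size factors, library size only, other filters, a block for replicate number, fits without single libraries, and limma 3.58.1 on log2(FPKM + 1) or log2(FPKM + 0.1), filtered at 0.5 FPKM in 3 libraries. Totals were 38624292 to 46318311 counts a library. Named in the text were all members, NOTCH4, DLL3 and DLL4, the NOTCH2-like copies, overlapping genes that held counts, up to 3 called genes of each role by p, and the 3 genes closest to the called member of smallest p. Of the overlapping genes, those with few counts, except MIR6870, were left out of the text, as were other short RNA genes and a pseudogene inside MIB1. DLK1, MFAP2 and RBPJL were not tested. Genes named as not called within a role, and TLE3, fall outside this rule and were named after their values were seen.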

Additional observations from a re-analysis of the deposited data

How the results depend on the processing

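No log2 fold change of the 31 single genes followed through the alternatives changed sign. Of 449 such values, 390 stayed on the same side of the limit, 54 lost the call and 5 gained it. Besides the members, NOTCH4, DLL3 and DLL4, these genes were picked as called, with the smallest p in their role. The alternatives reuse the same libraries, so this stability was partly fixed by that choice. JAG1, JAG2, NOTCH1, NOTCH3 and HES1 were called in all 15 alternatives. Members called lower numbered 1 to 3 on leaving out a library, against 2. Members past a log2 fold change of 1 numbered 1 on log2(FPKM + 1), with or without a filter, 2 with library size only and on log2(FPKM + 0.1), where JAG2 lay under the limit, and 4 without control replicate 3 or Sev replicate 3, where HES1 passed it, against 3. On log2(FPKM + 1) the pseudocount shrinks the change of low genes. Wider pathway genes called higher, 21 with all libraries, were 11 with library size only, 7 on log2(FPKM + 1), 6 on log2(FPKM + 0.1), 9 on log2(FPKM + 1) without a filter, and 10 to 16 on leaving out a library. Over all features the share called higher was 22.2% with all libraries and 16.9%, 16.4%, 16.2% and 9.64% in these 4 settings, and 16.7% to 20% on leaving out a library. Of the list genes tested the share was 31.8% with all libraries and 16.7%, 12.5%, 10.7% and 12.7% in these settings. On leaving out a library it was 15.2% to 24.2%. Those called lower, 8, were 14 with library size only and 13 on both filtered FPKM settings, where 27.3%, 30% and 29.2% of all features were called lower, against 21.5%. The cause of these shifts was not tested. With library size only the median of all features was −0.15. Samples with the same replicate number showed no shared deviation (r = −0.0072, 0.0035 and 0.027). With 3 libraries a group, this cannot tell whether they were prepared in numbered pairs. With the replicate number as a block, 5 members were called higher and 2 lower, and 16 (24.2%) and 7 (10.6%) wider pathway genes, against 19% and 18.2% of all features in that fit. Few counts, at most 166 in any control library, stood behind NOTCH3, NOTCH4, DLL3, DLL4, MFNG, MFAP5, NEURL1, NRARP, DLK2 and DTX4.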
